A study of Sus scrofa with 92 samples.

Results

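The 7 genes described here are DPPA5 (ENSSSCG00000004283), ZP3 (ENSSSCG00000007691), PADI6 (ENSSSCG00000003484), ZAR1 (ENSSSCG00000008824), FKBP6 (ENSSSCG00000007702), KPNA7 (ENSSSCG00000007607) and INHA (ENSSSCG00000020771). They were taken by symbol from the 25322 pig gene IDs of the expression tables, of which 11804 carry a symbol, and each symbol belonged to 1 ID. The first 6 are genes of the oocyte, and INHA is the gene of granulosa cells set beside them. The genes had been picked for their ovary levels, so their difference between ovary and other tissues is described below without a test.

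RNA was sequenced from pigs of 10 breeds at 60 days of age, with 1 library for each breed and tissue. The 83 tissue libraries comprised 9 ovaries, 9 hearts, 9 livers, 9 kidneys, 9 samples of subcutaneous adipose tissue, 8 lungs, 10 spleens and 10 samples each of the skeletal muscles psoas major and longissimus dorsi, and 9 further libraries were tissue mixtures of unstated composition. The ovaries came from 5 Western breeds (Berkshire, Hampshire, Landrace, Large White and Piétrain) and 4 Chinese breeds (Bamei, Jinhua, Meishan and Rongchang). Tibetan wild boar contributed spleen and both muscles alone, and no treatment or genetic modification is named for any group. The labels do not say whether animals were pooled or whether the tissues of a breed came from 1 animal, so errors and p-values below measure the spread between single libraries of different breeds.

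A growing oocyte stores transcripts and proteins for the first days of the embryo, because its own transcription stops before fertilization. Around it the oocyte builds the zona pellucida, a glycoprotein coat that sperm must bind and cross, and the surrounding granulosa cells divide, make oestrogen and secrete inhibin, which lowers the release of follicle-stimulating hormone from the pituitary. An ovary before puberty holds many resting and small growing follicles and no corpus luteum.

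Values are FPKM, fragment counts relative to transcript length and library size, as deposited and then scaled between libraries by median ratios. Gene length is part of the unit, so levels of different genes can be set side by side. Between 14187 and 14561 genes reached 1 FPKM in an ovary. Read counts were not analysed here, so depth is unknown and a value near 0 has no counting interval. In bulk tissue, fewer cells of a type and less RNA per cell cannot be told apart.

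The labelled tissue was checked against other oocyte genes. Of 91 further symbols of the oocyte and germ cell (coat proteins, transcription factors, growth factors, maternal-effect genes, maturation, piRNA and meiotic chromosome genes), 62 were found. Of these 62, 35 exceeded every one of the 7 remaining tissue classes (both muscles as 1 class) in ovary, by limma with Benjamini-Hochberg adjusted p below 0.05 and log2 differences above 1, a rule that called 5.58% of all 16893 genes tested. Levels were high enough to test for 51 of the 62, and DMC1, PLCZ1 and DNMT3L were among those too low, so the count is a description. With the Meishan ovary left out the count was 36. The germ cell helicase DDX4 had 31.3 ± 15.4 scaled FPKM in ovary (SD, n = 9), the oocyte growth factor GDF9 63.7 ± 17.3, and the coat protein ZP4 69.4 ± 31.6.

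DPPA5, an RNA-binding protein of pluripotent cells and germ cells, had the highest level of the 7 genes. Its scaled FPKM in the 9 ovaries ran from 154.8 in Bamei through a median of 486.8 in Hampshire to 718.8 in Large White, with a mean of 469.9 ± 196.4 (SD). Bamei and Meishan, at 154.8 and 166.5, stood apart from the other 7 ovaries, which lay between 469.4 and 718.8. In the 74 tissue libraries outside ovary DPPA5 was listed at 0 in 53 and never reached 1 scaled FPKM.

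ZP3, a glycoprotein of the coat known in mice as a sperm receptor, came next. It ranged from 97.9 in Meishan through a median of 340.1 to 522.6 in Jinhua, with a mean of 315.3 ± 124.9 scaled FPKM. Large White was second lowest at 191.6, and the remaining ovaries lay between 264.0 and 522.6.

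PADI6, a protein of the cytoplasmic lattices of the oocyte and a maternal-effect gene, ranged from 34.1 in Meishan through a median of 144.9 to 177.2 in Rongchang (mean 133.1 ± 46.4 scaled FPKM). Large White was again second lowest, at 83.6, and the other 7 ovaries lay closely between 132.1 and 177.2. ZAR1, an RNA-binding maternal-effect protein that holds stored transcripts, ranged from 25.4 in Meishan through a median of 114.1 to 141.4 in Berkshire (mean 107.9 ± 35.8). Here Large White, at 138.2, was the second highest. Without Meishan, the 8 ovaries were within 1.60-fold of each other for ZAR1, the narrowest range among the 7 genes.

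FKBP6, a co-chaperone of meiosis and of the piRNA pathway that silences transposons in germ cells, ranged from 39.9 in Meishan through a median of 109.9 to 156.9 in Jinhua (mean 105.1 ± 34.3 scaled FPKM). KPNA7, an importin alpha of oocytes and early embryos that carries proteins into the nucleus, ranged from 27.6 in Meishan through a median of 84.1 to 132.6 in Jinhua (mean 81.3 ± 31.6). Large White, at 123.5, lay in the upper part of the FKBP6 values but was second lowest for KPNA7, at 45.8.

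INHA encodes the alpha subunit shared by the inhibins. Its ovary values ran from 30.8 in Meishan through a median of 172.0 in Landrace to 303.5 in Hampshire, with a mean of 183.3 ± 83.1 scaled FPKM. Bamei, at 293.0, was close to Hampshire. The highest value was 9.86-fold the lowest, the widest range among the 7 genes, and 2.33-fold the lowest once Meishan was left out. By mean the order in ovary was DPPA5, ZP3, INHA, PADI6, ZAR1, FKBP6 and KPNA7, and each gene differed from its neighbour in that order by less than the SD of the higher one, except ZP3 from INHA.

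**Figure D1:**
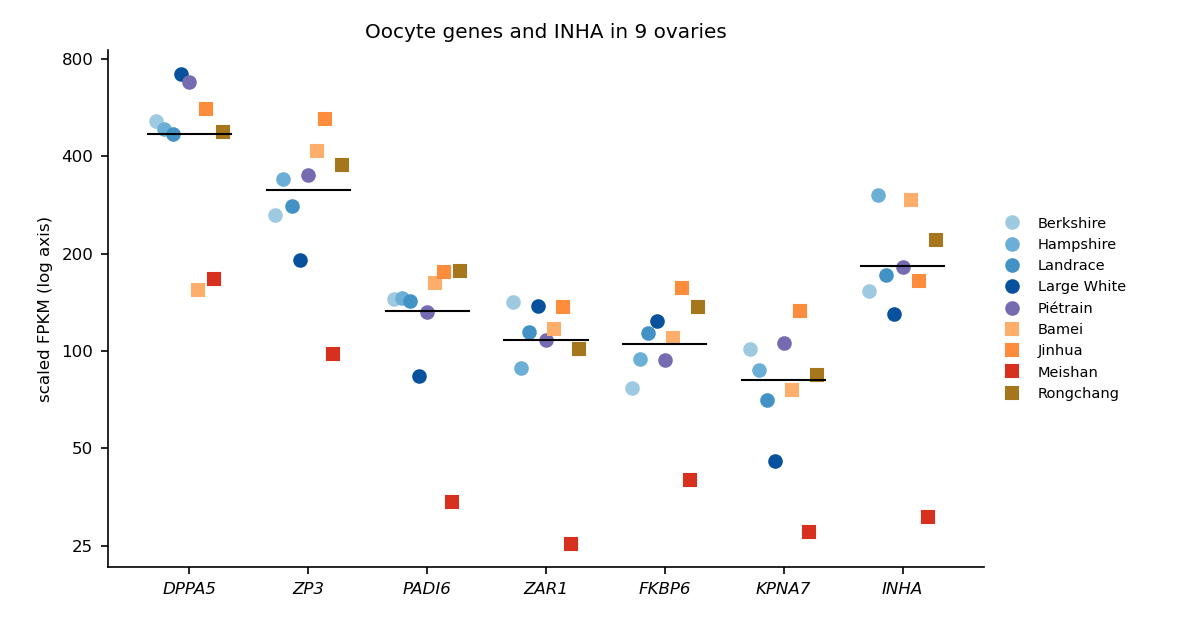
Scaled FPKM (log axis) of the 7 genes in the 9 ovaries, 1 point per breed, circles for Western and squares for Chinese breeds, with a bar at the mean. Meishan is the lowest point for every gene except DPPA5, where Bamei at 154.8 lies just below Meishan at 166.5.

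With the Meishan ovary included, the 7 genes varied more between ovaries than most genes. Their SD on the log2(scaled FPKM + 1) scale lay between 0.57 for FKBP6 and 0.96 for INHA, against a median of 0.25 over the 13973 genes tested in ovary, and at least 91.2% of those genes had a smaller SD than any of the 7. Meishan was the lowest ovary for 6 of the 7, whereas 31.1% of all genes had their lowest value there. Without Meishan the range from lowest to highest ovary narrowed for these 6, from 5.57-fold to 1.60-fold for ZAR1 and from 5.20-fold to 2.12-fold for PADI6. For DPPA5 it stayed at 4.64-fold. The log2 SD was not compared with that of all genes without Meishan, so a wider spread among the other ovaries was not tested. As a share of the median of the other 8 ovaries, the Meishan level was 17.4% for INHA, 22.0% for ZAR1, 23.5% for PADI6, 28.4% for ZP3, 32.1% for KPNA7, 33.2% for DPPA5 and 35.7% for FKBP6. The granulosa gene thus lay farther below the other ovaries in that library than any of the oocyte genes.

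Other oocyte genes were also low in the Meishan ovary. It held the lowest value for 33 of 50 oocyte and germ cell list genes tested, and all 13 tested germ cell and piRNA genes were below the median of the other ovaries, by a median of 1.43 on the log2 scale, where 54.6% of all genes were below. The piRNA gene MAEL was at 9.27 there against 26.1 to 58.5 elsewhere, and DDX4 at 7.51 against 21.1 to 63.2. Genes of the follicle wall were mixed. Of 14 granulosa genes 10 were below the median of the others and of 8 theca and steroid genes 6 were, against 54.6% of all genes. Their list medians were -0.68 and -0.69, beside -0.05 over all 13973 genes. Meishan held the lowest value for 9 of these 14 and 5 of these 8, against 31.1% of all genes. The 6 tested genes of the inhibin and activin list were FST, TGFBR3, ACVR1, ACVR1B, ACVR2A and ACVR2B, with no inhibin or activin subunit among them. The 5 receptors and co-receptors were above the median of the others (list median 0.29), and FST alone was below. WT1, at 102.1 in Meishan against 42.7 to 58.0 elsewhere, was 1 of 3 granulosa genes highest there. FSHR, at 1.35 against 2.50 to 8.34, was 1 of the 9 that were lowest.

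Epithelial and smooth muscle genes went the other way in the same library. The motile-cilia regulator FOXJ1 was at 71.3 scaled FPKM in Meishan against 0.52 to 10.7 in the other ovaries, the keratin KRT8 at 317.4 against 57.3 to 149.9, and KRT18 at 22.7 against 0.26 to 7.96. Over the surface and oviduct epithelium lists, 6 of 9 tested genes were highest in Meishan, against 23% of all genes, and none of the 9 was listed at 0 in that library. The surface epithelium gene LHX9 and the basonuclin BNC1 did not share this, with 9.50 and 2.32 in Meishan against 7.68 to 17.3 and 3.63 to 6.60 elsewhere. Of 10 stroma and smooth muscle genes, 8 were above the median of the other ovaries, where 45.3% of all genes were, and 6 were highest in Meishan. Calponin CNN1 was at 27.1 against 2.56 to 16.4 elsewhere, desmin DES at 19.9 against 2.15 to 14.4, and the smooth muscle myosin MYH11 at 26.5 against 3.50 to 19.9, while the matrix genes DCN and COL3A1 were below the median there. The total of deposited FPKM was also highest there, at 1221012 against 586167 to 744497 in the other ovaries. The part of these genes in the low values of the 7 genes was not tested.

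**Figure D2:**
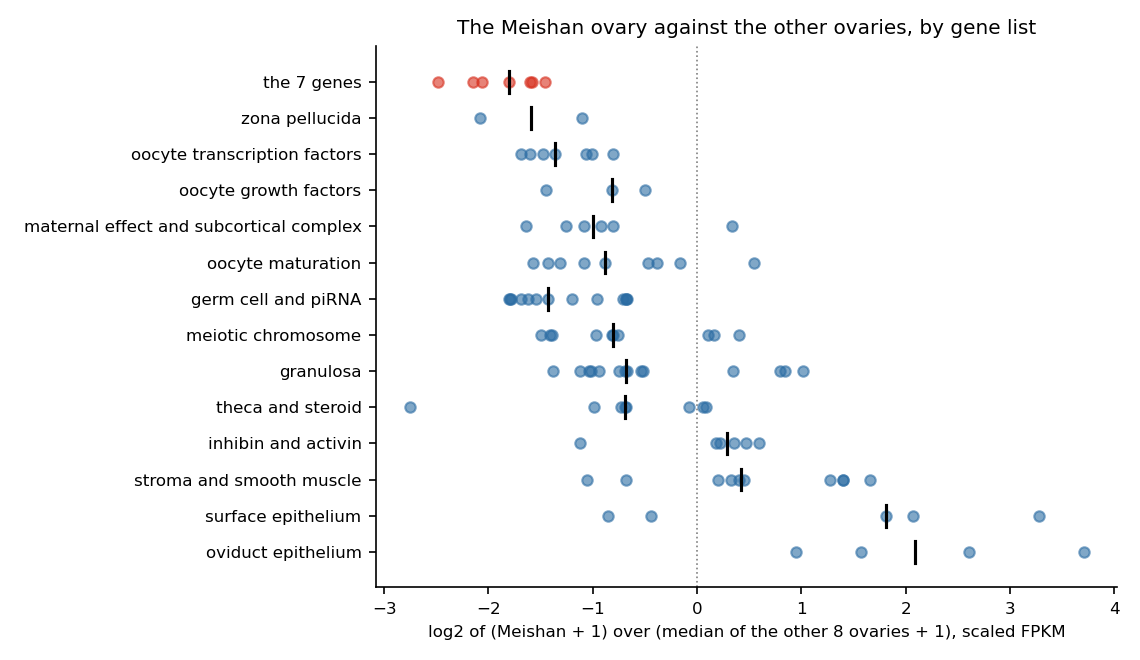
Level of each tested gene in the Meishan ovary over the median of the other 8 ovaries (log2, 1 added to both scaled FPKM values), by gene list, with a bar at the list's median. The 7 genes have a median of -1.81, the germ cell and piRNA list one of -1.43, and the oviduct epithelium list one of 2.09.

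In the Large White ovary the oocyte genes went in different directions. ZP3, PADI6 and KPNA7 were at their second lowest there, while DPPA5 was at its highest and ZAR1 at its second highest, so that the ratio of DPPA5 to ZP3 was 3.75 in Large White and 0.37 in Bamei, with 1.08 to 1.95 in the other 7 ovaries. The ratio of PADI6 to ZP3 moved less than any other, from 0.34 in Jinhua to 0.55 in Berkshire. Several oocyte genes were lowest in Large White as well: ZP4 was at 6.50 there against 36.7 to 111.1 elsewhere, BMP15, a growth factor of the oocyte, at 4.59 against 16.9 to 63.0, ZP2 at 0.79 against 1.03 to 15.8, and the sperm-block protease ASTL at 0.15 against 1.05 to 7.59. In all, 6 of 50 oocyte and germ cell list genes had their lowest value in Large White, against 5.32% of all genes, and these examples were picked after their values were seen. GDF9 at 72.3 and DDX4 at 29.8 lay within the range of the other ovaries in the same library.

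Correlation between the 9 ovaries was computed for the 21 pairs of the 7 genes on log2(scaled FPKM + 1). Pearson r had a median of 0.75 and was positive in every pair, from 0.32 for DPPA5 and ZP3 to 0.95 for ZP3 and PADI6. By a two-sided exact permutation test with Benjamini-Hochberg adjustment over the 21 pairs, 5 pairs passed 0.05. These were ZP3 with PADI6 (adjusted p = 0.0131), ZP3 with KPNA7 (r = 0.91, adjusted p = 0.0234), PADI6 with KPNA7 (r = 0.90, adjusted p = 0.0349), PADI6 with INHA (r = 0.92, adjusted p = 0.0349) and ZP3 with INHA (r = 0.86, adjusted p = 0.0443). By rank, 0 of 21 pairs passed after adjustment in the same exact test and 1 had an unadjusted p below 0.05. The sign was not positive throughout by rank: rho was negative for DPPA5 with ZP3 (-0.05), PADI6 (-0.17) and INHA (-0.25) and for ZAR1 with INHA (-0.28). Spearman's rho for the 5 pairs that passed by Pearson r was 0.83, 0.65, 0.53, 0.63 and 0.65. The unadjusted p by the exact test was 0.00827, 0.0666, 0.148, 0.076 and 0.0666, with adjusted p of 0.174 for the first and 0.378 to 0.443 for the rest.

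No pair passed without the Meishan ovary, although 3 of the 5 kept a high r. Without it the median r over the 21 pairs was 0.04, 12 pairs were positive and 9 negative, and 0 pairs passed after adjustment in the exact permutation test over 8 ovaries, with 4 at an unadjusted p below 0.05. ZP3 and PADI6 kept r = 0.86 (unadjusted p = 0.00625, adjusted p = 0.131), ZP3 and KPNA7 had 0.76, and PADI6 and KPNA7 had 0.74. ZP3 and INHA had 0.51, and PADI6 and INHA 0.53. ZAR1 and INHA went from 0.77 to -0.76 (adjusted p = 0.207 without Meishan), and DPPA5 and INHA from 0.33 to -0.68 (adjusted p = 0.207). Leaving out the 2 ovaries farthest from the median of the first gene gave 0.70 for ZP3 and PADI6, 0.46 for ZP3 and KPNA7, 0.15 for PADI6 and KPNA7, 0.15 for PADI6 and INHA and 0.23 for ZP3 and INHA, Large White and Meishan being left out in each, so the last 3 of these relations rested on those ovaries. The number of passing pairs was 3 when Bamei, Jinhua, Large White, Piétrain or Rongchang was left out, 1 without Landrace and 0 without Meishan.

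**Figure D3:**
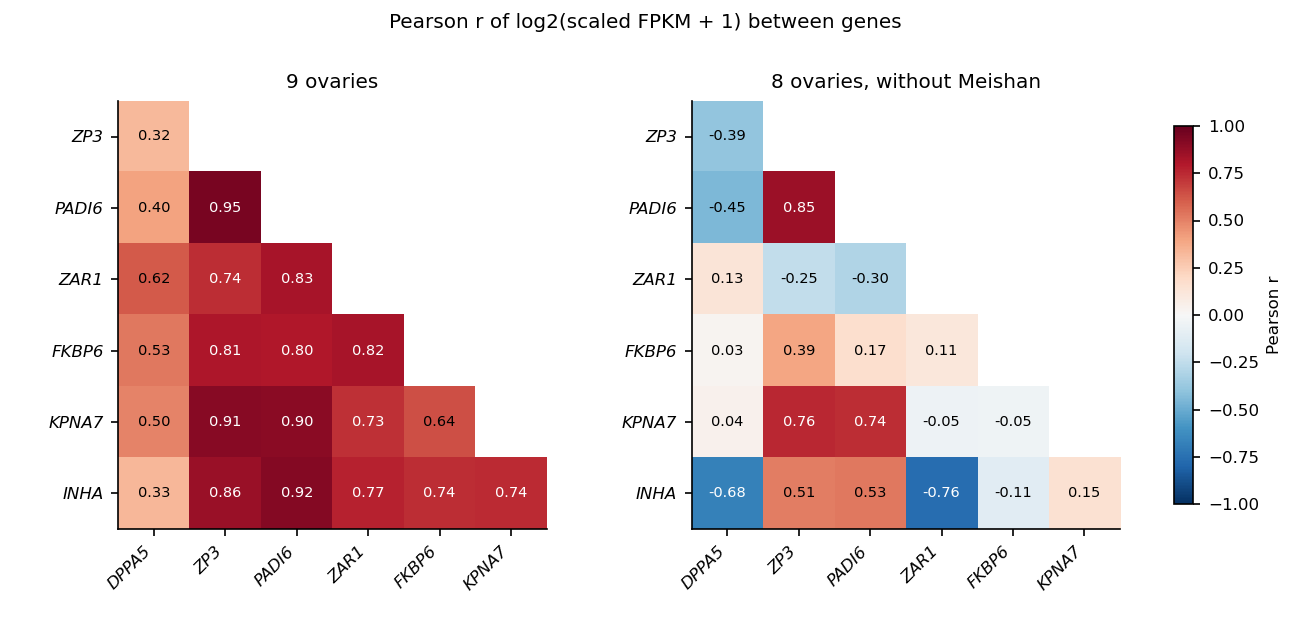
Pearson r of log2(scaled FPKM + 1) for each pair of the 7 genes, over all 9 ovaries (left) and without Meishan (right), on a colour scale from -1 to 1. Every pair is positive on the left, and 12 of 21 are positive on the right.

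**Figure D4:**
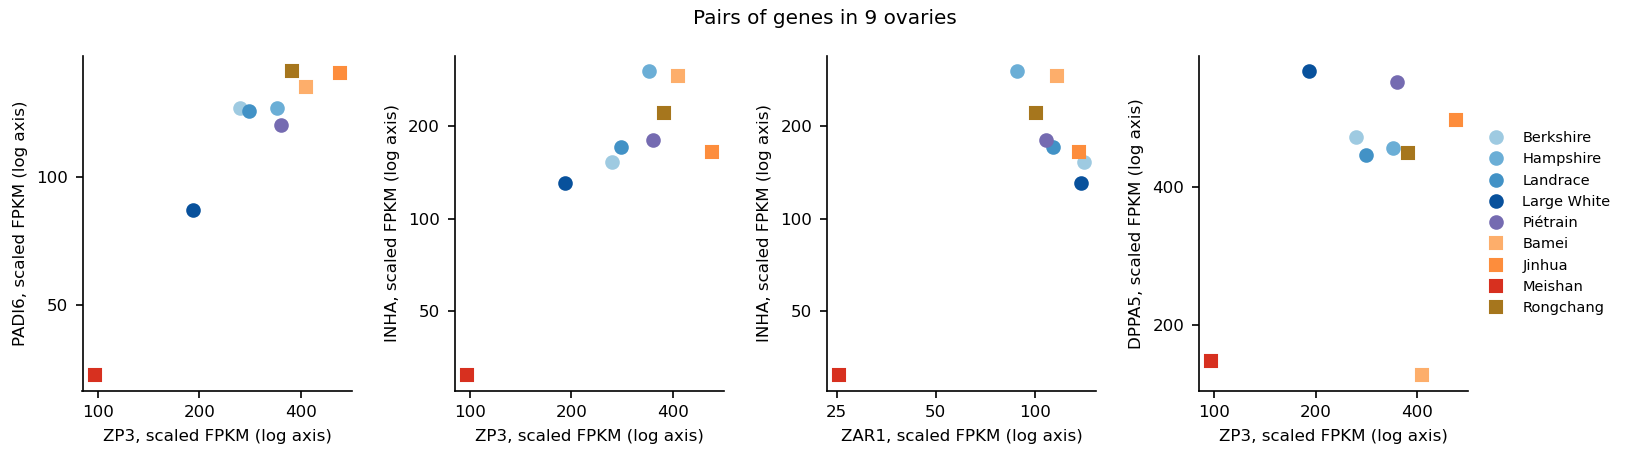
Scaled FPKM (log axes) of 4 pairs of genes in the 9 ovaries, 1 point per breed, circles for Western and squares for Chinese breeds. Meishan lies at the low end of ZP3, PADI6, ZAR1 and INHA, and among the other 8 ovaries INHA falls as ZAR1 rises (r = -0.76).

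Across all genes, the slope of each gene on ZP3 over the 9 ovaries was tested with limma. Of the other 6 genes, PADI6, KPNA7, INHA, FKBP6 and ZAR1 followed ZP3 at adjusted p of 0.02, 0.02, 0.02, 0.0281 and 0.0482, and DPPA5 did not pass (adjusted p = 0.485). In the exact permutation test of the pairs FKBP6 and ZAR1 did not pass with ZP3 (adjusted p = 0.0655 and 0.123). Without Meishan the r with ZP3 was 0.86 for PADI6, 0.76 for KPNA7, 0.51 for INHA, 0.39 for FKBP6 and -0.25 for ZAR1. Of all genes, 10.9% followed ZP3 in the same direction and 5.47% in the opposite one. Without Meishan 0 genes passed in either direction by limma, with 963 and 781 at an unadjusted p below 0.05, and without Jinhua 3 and 0 passed, with 2473 and 1670 at an unadjusted p below 0.05. Without Rongchang 968 and 500 genes passed, against 1518 and 764 with all ovaries.

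The genes with a symbol and the smallest p beside ZP3 were ZGLP1, a zinc-finger factor of germ cells (r = 0.96), PADI6, TSPAN17 (0.97), GCLC, a subunit of the enzyme that limits glutathione synthesis (0.96), and IMMP1L, a mitochondrial inner-membrane peptidase (0.98). Their r without Meishan was 0.92, 0.86, 0.91, 0.87 and 0.95. On the opposite side stood SPATS2L, the histone variant H2AZ2, the signalling inhibitor SPRY1, carboxypeptidase E (CPE) and the transcription factor NFIB, with r from -0.95 to -0.92, and from -0.88 to -0.75 without Meishan. Of 50 oocyte and germ cell list genes, 24 followed ZP3, among them MAEL (adjusted p = 0.02), DDX4 (0.02), the transcription factor FIGLA (0.02), which drives zona genes, and GDF9 (0.0342). The list median of r was 0.75 with all 9 ovaries and 0.41 without Meishan, beside 0.09 and 0.06 over all genes. The other coat genes ZP4 (r = 0.59) and ZP2 (r = 0.71) did not pass (adjusted p = 0.146 and 0.0581). Of 5 surface epithelium genes 3 moved opposite to ZP3 and 1, BNC1, followed it (r = 0.78, adjusted p = 0.0434). Of 4 oviduct epithelium genes 3 and of 10 stroma and smooth muscle genes 2 moved opposite, where 5.47% of all genes did.

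Fewer genes followed INHA by the same limma test: 0.1% of all genes in the same direction and 0.0716% in the opposite one. Of the other 6 genes, PADI6 passed (adjusted p = 0.0483), and ZP3 (0.0577), ZAR1 (0.0769), KPNA7 (0.0859), FKBP6 (0.0891) and DPPA5 (0.51) did not. These counts were unstable, at 14 and 10 genes with all ovaries, 41 and 75 without Bamei, 460 and 327 without Hampshire and 643 and 474 without Jinhua. They were 0 and 0 without Berkshire, Landrace, Large White, Meishan, Piétrain or Rongchang, where 546 to 2075 and 488 to 1509 genes had an unadjusted p below 0.05, the lowest of these without Meishan. The 5 with a symbol and the smallest p were the acyl-CoA synthetase ACSBG1 (r = 0.97), TMEM108 (0.96), the calcium-binding protein S100A1 (0.94), the phosphatidylserine synthase PTDSS1 (0.97) and the lysosomal protease CTSB (0.96). Without Meishan these had 0.97, 0.79, 0.91, 0.90 and 0.81. Opposite to INHA were MAL2, LRATD2, RBM47, NIBAN1 and MBOAT1, with r from -0.96 to -0.93 and from -0.76 to -0.57 without Meishan.

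The relation of INHA to other follicle genes varied within each list once Meishan was left out, and is given as a description with no test. Among the 4 granulosa genes with the highest ovary mean, the 8 other ovaries gave r = 0.82 with SERPINE2, a protease inhibitor, 0.55 with the gap junction gene GJA1, 0.15 with the transcription factor GATA4 and -0.11 with WT1. Among the 4 highest theca and steroid genes they gave 0.88 with INSL3, a peptide hormone of theca cells, 0.88 with NR5A1, the steroidogenic factor, 0.51 with the lipoprotein receptor SCARB1 and -0.10 with HHIP. Of the oocyte and germ cell genes, r ran from -0.66 for TDRKH to 0.75 for BTG4, with DNMT1 at 0.725 and UCHL1 at 0.655. With all 9 ovaries 0 genes of these lists passed the limma test, where INSL3 had an adjusted p of 0.0557 and NR5A1 0.062. INSL3 was at 57.6 in Hampshire and 45.1 in Bamei, the 2 ovaries highest for INHA, and between 1.18 and 18.8 in the other 7. Hampshire also had the highest FST, at 62.9 against 3.64 to 12.9. The list medians of r with INHA without Meishan were 0.35 for granulosa, 0.45 for theca and steroid and -0.15 for the oocyte and germ cell lists, beside -0.03 over all genes.

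The partners of INHA could be followed in part. Inhibin pairs the alpha subunit with a beta subunit, activin pairs beta subunits alone, and both bind activin receptors. Of 11 symbols of this pathway 7 were found. Of these, 0 of 7 were called in ovary and 0 of 6 followed INHA, counts that do not stand apart from the 5.58% and 0.1% of all genes. The inhibin co-receptor TGFBR3 was at 13.7 ± 3.24 scaled FPKM in ovary, the receptors ACVR1 at 13.5 ± 2.46 and ACVR1B at 3.34 ± 0.78, and FST at 14.4 ± 18.4. The beta subunit INHBE was listed at or near 0, and the beta subunits A and B were not matched by symbol and are not analysed here.

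Relatives of 3 oocyte genes were set beside them. Of the importins, 0 of 5 tested were called in ovary, of the peptidylarginine deiminases 0 of 3 and of the FK506-binding proteins 0 of 9. With 5.58% of all genes called, counts of 0 in lists this short do not set these families apart. KPNA2 was at 60.5 ± 13.8 scaled FPKM in ovary, its partner KPNB1 at 17.6 ± 1.51, PADI2 at 2.68 ± 2.67 and FKBP8 at 108.0 ± 12.2. The mean of FKBP6 in these ovaries, 105.1, differed from that of the widely expressed FKBP8 by less than the SD of either. KPNA2 and FKBP3 passed the ZP3 test in the same direction (r = 0.83 and 0.91, adjusted p = 0.0287 and 0.0349 by limma) and PADI2 in the opposite one (r = -0.78, adjusted p = 0.032). Without Meishan their r was 0.637, 0.795 and -0.512. They were 1 of 5 importins, 1 of 9 FK506-binding proteins and 1 of 2 peptidylarginine deiminases tested in ovary. Of all genes, 10.9% followed ZP3 and 5.47% moved opposite, and lists this short do not stand apart from that.

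The genes most like each of the 7 over the 9 ovaries were sought among 8866 genes with a symbol and a mean of at least 1 scaled FPKM in ovary, by Pearson r and with no test. For DPPA5 they included COCH (0.94) and the collagen COL2A1 (0.92), which kept 0.91 and 0.88 without Meishan. For ZP3 they were IMMP1L (0.98), the G protein subunit GNB5 (0.97) and TSPAN17 (0.97), and for PADI6 the ferritin light chain FTL (0.97), GEMIN8 (0.96) and C15orf40 (0.96). ZAR1 was most like SMYD5 (0.99), GDF9 (0.98) and TTC39C (0.98), with 0.82, 0.83 and 0.90 without Meishan. FKBP6 was most like TM2D3 (0.99), the dolichol kinase DOLK (0.99) and the cell cycle factor E2F1 (0.99), with 0.98, 0.97 and 0.97. KPNA7 was most like RMND1 (0.96), the germ cell ADP/ATP carrier SLC25A31 (0.93) and PBK (0.93), and INHA like ACSBG1 (0.97), PTDSS1 (0.97) and CTSB (0.96). None of the 7 was among another's nearest 3.

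Over all 83 tissue libraries the rank order, which is tied at 0 in many of them, gave other neighbours. By Spearman's rho, ZP3 was most like ASTL (0.84), OOEP, a protein of the subcortical maternal complex (0.82), and CCNO (0.81). The nearest to PADI6 included BOLL, an RNA-binding protein of the germ line (0.78), and CALCR (0.75), and ZAR1 was most like the oocyte gene NLRP9 (0.84), CBY2 (0.78) and TCL1A (0.78). FKBP6 was most like RPL10L (0.92), the bromodomain protein BRDT of germ cells (0.92) and TCL1A (0.88), and DPPA5 like NAA11 (0.66), TBPL2, a TATA-binding protein relative of oocytes (0.65), and CRYBB2 (0.65). For KPNA7 the nearest were ZSCAN30 (0.72), SALL2 (0.69) and SIN3B (0.68), and for INHA PHF24 (0.85), AKTIP (0.85) and WFIKKN2 (0.84). These libraries share breeds and possibly animals.

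Outside ovary INHA was present in heart. Its scaled FPKM there ran from 5.43 in Hampshire through a median of 20.4 in Jinhua to 44.4 in Bamei, with a mean of 24.3 ± 13.4 (SD, n = 9). All 9 hearts were above 5 scaled FPKM, and the range overlapped that of the ovaries through Meishan alone, since the other 8 ovaries began at 130.5. Within a breed the ovary exceeded the heart everywhere, from 2.195-fold in Meishan and 3.11-fold in Large White to 55.9-fold in Hampshire.

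INHA in the skeletal muscles was lower. It ran from 0.32 through a median of 1.09 to 7.30 in longissimus dorsi (mean 1.97 ± 2.29, n = 10) and from 0.18 through a median of 0.69 to 4.65 in psoas major (mean 1.29 ± 1.55, n = 10). Large White and Rongchang were the highest pair in both muscles. Below these came lung (mean 0.30 ± 0.39, highest 1.18), kidney (0.12 ± 0.06), liver (0.08 ± 0.09), subcutaneous adipose tissue (0.06 ± 0.08) and spleen (0.01 ± 0.02). Every neighbouring pair of tissues in this order overlapped, heart and longissimus dorsi included.

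Tissue differences outside ovary were tested with a limma F test over the 74 libraries, with breed as block. Only INHA and ZP3 reached 1 scaled FPKM in at least 3 of these libraries. INHA passed (adjusted p = 2.95e-29), as did 98.7% of all genes tested. ZP3 also passed (adjusted p = 4.26e-20), but it met the filter through 3 spleens alone, the tissue where it was highest outside ovary. Its p under that filter is therefore not used as evidence of a tissue difference. With no filter on low values ZP3 had an adjusted p of 8.91e-21 by the same F test, on values of at most 1.40 scaled FPKM. In a contrast chosen after the values were seen, INHA was higher in heart than in longissimus dorsi by 3.11 ± 0.22 on the log2(scaled FPKM + 1) scale (SE, adjusted p = 9.88e-20 by limma), in 9 of 9 breeds. Of all genes, 27.5% were higher in heart by this contrast. In the Sscrofa11.1 reference OBSL1, a cytoskeletal adaptor gene, precedes INHA and no gene overlaps it. OBSL1 was at 19.5 ± 2.83 scaled FPKM in heart and 23.0 ± 5.59 in longissimus dorsi, an order of means unlike that of INHA. Its mean was highest in ovary, at 36.9 ± 7.95, with psoas major at 17.3 ± 4.83 and kidney next at 12.3 ± 1.20. Ovary, heart and both muscles thus had the highest means for OBSL1 as for INHA. Overlap of the genes in Sscrofa10.2, on which the FPKM were made, could not be checked.

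Breeds with more INHA in heart tended to have more in muscle, without passing adjustment. Among 5 relations over 9 breeds, tested by exact permutation, heart and psoas major gave r = 0.70 (p = 0.0343, adjusted p = 0.0857) and rho = 0.80 (p = 0.0138, adjusted p = 0.0691). Heart and longissimus dorsi gave r = 0.65 (p = 0.0598, adjusted p = 0.0996) and rho = 0.55 (adjusted p = 0.202). The muscles gave r = 0.81 (p = 0.0116, adjusted p = 0.0582) and rho = 0.62 (adjusted p = 0.202), but 0.19 once the 2 breeds farthest from the median were left out, so that relation rested on those breeds. Without the 2 farthest breeds the first pair gave 0.81 and the second 0.84. Heart and ovary gave r = 0.05 (p = 0.894, adjusted p = 0.894), with rho = -0.02 and 0.37 without the 2 farthest. INHA and OBSL1 in heart gave r = 0.45 (p = 0.229, adjusted p = 0.287), with rho = 0.52 and 0.34 without the 2 farthest.

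ZP3 was detected in spleen. All 10 spleens had a value above 0, from 0.18 in Landrace through a median of 0.60 to 1.40 in Piétrain (mean 0.74 ± 0.42 scaled FPKM). Lung had at most 0.05, and all 9 hearts, 9 livers, 9 kidneys, 9 adipose samples and 20 muscles were listed at 0. Hampshire, Piétrain and Tibetan wild boar were the 3 spleens at 1 or more, so that ZP3 was no longer tested once Tibetan wild boar was left out.

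The remaining oocyte genes were near 0 outside ovary, with traces in single tissues. PADI6 was above 0 in all 10 samples of longissimus dorsi, at 1.81 in Large White, 0.67 in Landrace and 0.03 to 0.14 in the other 8, and was listed at 0 in every liver, spleen and kidney. KPNA7 was above 0 in all 9 kidneys, from 0.05 through a median of 0.23 to 1.02 in Jinhua, with Large White next at 0.85. DPPA5 reached 0.82 in 1 liver and 0.74 in 1 psoas major and was listed at 0 in all hearts and adipose samples. ZAR1 never exceeded 0.09 and was listed at 0 in 67 of 74 libraries, and FKBP6 never exceeded 0.03 and was at 0 in 71 of 74. With no filter on low values the F test passed for KPNA7 (adjusted p = 2.70e-05) and PADI6 (0.00361) but not for DPPA5 (0.0783), ZAR1 (0.238) or FKBP6 (0.755). The 2 passes rest on values near 0, since KPNA7 and PADI6 each reached 1 scaled FPKM in 1 of 74 libraries. With the filter 98.7% of all genes passed, so a pass does not set a gene apart.

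**Figure D5:**
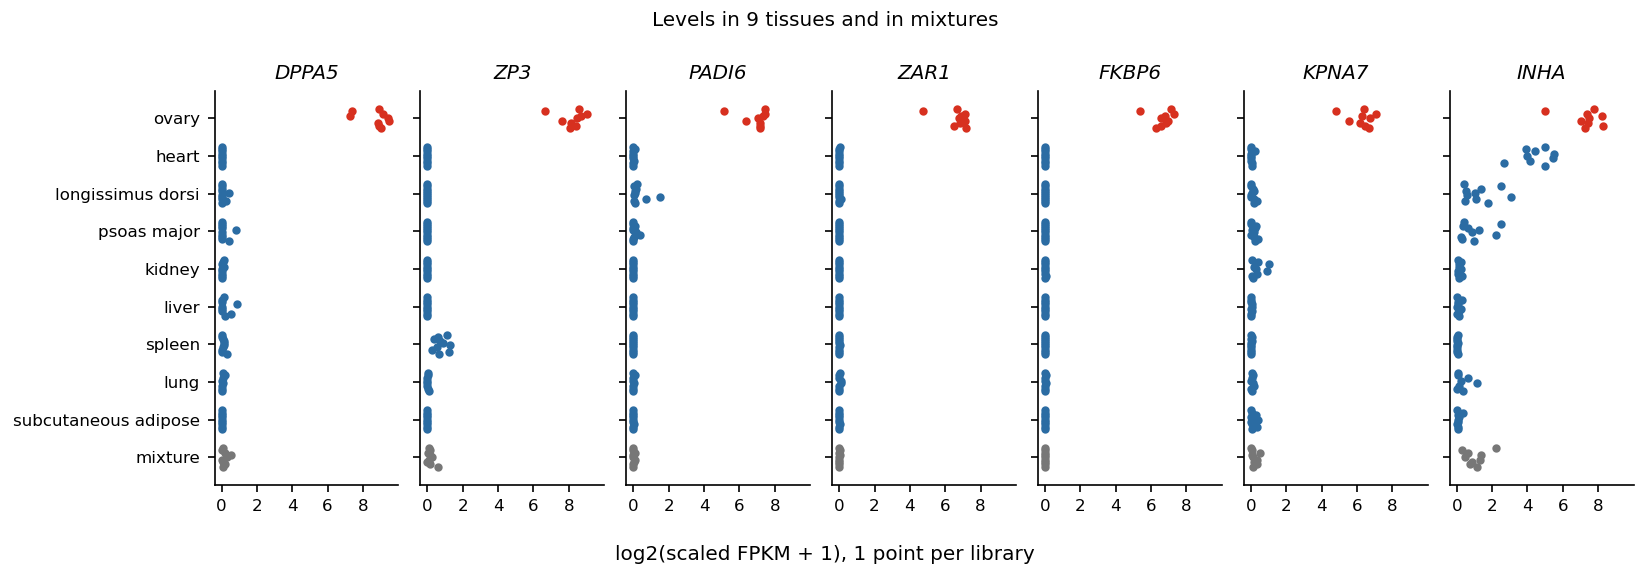
Levels of the 7 genes as log2(scaled FPKM + 1), 1 point per library, in ovary (red), the 8 other tissues (blue) and the mixtures (grey). The 6 oocyte genes stay at or below 1.81 scaled FPKM outside ovary, whereas INHA reaches 44.4 in heart.

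The mixtures held almost none of these transcripts. Over the 9 breeds with a mixture and an ovary, the mixture level as a percent of the ovary level of the same breed was at most 0.28% for DPPA5, 0.20% for ZP3, 0.06% for PADI6, 0.14% for ZAR1, 0% for FKBP6 and 0.54% for KPNA7. INHA ran from 0.22% through a median of 0.53% to 1.70%, and from 0.25 in Meishan to 3.75 scaled FPKM in Rongchang. In a mixture of 9 equal parts of tissue RNA, a transcript of the ovary alone would stand at 11.1% of its ovary level. Against the mean log2 level of the 9 tissues of the same breed, the mean difference over the 8 breeds with every tissue ran from -0.86 for DPPA5 to -0.60 for KPNA7. It is given with no test, since that mean is carried by the ovary levels for which the genes were picked. By limma 33.7% of all genes were lower in the mixtures and 32.7% higher. With a pseudocount of 0.1 in place of 1 the difference was -0.51 for ZP3 and -0.13 for INHA.

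Breed origin was compared within ovary, 4 Chinese against 5 Western breeds, with limma over 13973 genes. None of the 7 genes passed, with adjusted p of 0.786 for DPPA5 and 0.999 for each of the other 6. DPPA5 was at 339.7 ± 209.7 scaled FPKM in Chinese and 574.1 ± 116.5 in Western breeds, a log2 difference of -0.97 ± 0.39 (SE, unadjusted p = 0.0343), the only one of the 7 with an unadjusted p below 0.05. ZP3 was at 353.0 ± 180.9 and 285.2 ± 63.9, and INHA at 177.2 ± 110.9 and 188.1 ± 67.3. The ranges of the origins overlapped for ZP3, for INHA and for DPPA5, which ran from 154.8 to 561.8 in Chinese and from 469.4 to 718.8 in Western breeds. Of all genes 0.00716% were higher and 0.0501% lower in Chinese breeds. Without Meishan 52 genes were higher and 27 lower, and the log2 differences of PADI6, ZAR1, FKBP6, KPNA7 and INHA changed sign, to 0.43, 0.0151, 0.42, 0.26 and 0.29.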

How the data were processed

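RNA-seq of 92 pig libraries was deposited by the authors as FPKM, made with TopHat and Cufflinks 2.2.1 on Sscrofa10.2 per the submitters' processing notes. The annotation release, options, filters and treatment of reads that match several places are not given in the sources used here, and neither strand nor overlap of genes could be checked.

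FPKM were scaled by median ratios once over all libraries, from 12500 genes. Each fit used the genes with 3 or more libraries at or above 1 scaled FPKM, on log2(scaled FPKM + 1), with limma 3.58.1 (R 4.3.3, trend and robust options, two-sided, Benjamini-Hochberg over all genes tested, threshold 0.05). Breed was a block where tissues were compared, and mixtures were paired with tissues by breed. Correlations used exact permutation tests in Python 3.11.15 with numpy 2.4.6 and pandas 2.3.3 (scipy 1.17.1 for ranks). The tests were checked on simulated data with independent normal noise and no outlying library. That check does not cover fits that lean on few ovaries. Origin of a breed is general knowledge, not a label.

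The 7 genes, the 20 gene lists and the rules were chosen with earlier results of these data known. Named were the 7 genes, up to 4 genes per list with the highest mean in ovary and any list gene that passed for origin, for each of the 7 the 3 most alike over ovaries and over all tissues, and for ZP3 and INHA the 5 smallest p per direction. Some genes that this rule names are left out here. Other names were chosen after their values were seen, among them those for the Meishan and Large White ovaries. Symbols came from a separate name table. No sequence is shown, since no genome was used here. The alternatives are listed with their effect in the closing section.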

Additional observations from a re-analysis of the deposited data

Results flagged for a closer look

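A library was set aside for a closer look where its gap to the nearest library exceeded Dixon's 95% critical value for the group, on log2(scaled FPKM + 1), in the 15 combinations of gene and tissue that reached 1 scaled FPKM. Chance flags about 1 in 20 groups. In ovary the Meishan library stood far below the others for ZAR1, at 25.4 scaled FPKM with a gap of 0.724 of the range, for INHA, at 30.8 with 0.629, and for PADI6, at 34.1 with 0.542. In longissimus dorsi the Large White library stood above the others for PADI6, at 1.81 with 0.517.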

How the results depend on the processing

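Limits: each value is 1 library of 1 breed, depth is unknown, and low values outside ovary have no counting error. The fits on ZP3 and INHA and the correlations lean on few ovaries, and the cause of each change below was not tested.

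The number of genes called in ovary was 943, 1774 with FPKM as deposited, 307 with log2 differences above 2 and 1014 without the Meishan ovary, an alternative added after seeing the data. Genes higher in Chinese ovaries numbered 1, and 3 with FPKM as deposited, with no filter or with median ratios over the ovaries alone, 2 with quantile normalization or without the trend and robust options, and 0 with a filter at 5 FPKM, where 3 were lower against 7. Leaving out 1 breed gave 0 to 52 higher and 7 to 27 lower. Genes higher in the mixtures were 5544, and 2978 against the mean of FPKM in place of the mean of log2 values. Genes opposite to ZP3 were 764, and 455 with a filter at 5 FPKM. Leaving out 1 breed gave 0 to 1997 genes with ZP3 and 0 to 992 opposite. Genes with INHA were 14, and 0 with FPKM as deposited (1892 at an unadjusted limma p below 0.05) or median ratios over the ovaries alone (2051), and 49 with a filter at 5 FPKM. Opposite to INHA the 10 became 0 under the first and second of these (1987 and 1868 unadjusted). Leaving out 1 breed gave 0 to 643 with INHA and 0 to 474 opposite.

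For origin in ovary, which none of the 7 genes passed under any alternative run, leaving out 1 breed moved the log2 difference across 0 for 6 of them. The ranges were -0.17 to 0.64 for ZP3, -0.35 to 0.43 for PADI6, -0.780 to 0.0151 for ZAR1, -0.23 to 0.42 for FKBP6, -0.48 to 0.26 for KPNA7 and -0.78 to 0.29 for INHA. DPPA5 stayed between -1.29 and -0.67.

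Of the 21 pairs, 5 passed with all ovaries, 0 to 5 when 1 breed was left out, and 0 without the 2 ovaries farthest from the median, where 2 had an unadjusted exact permutation p below 0.05. Without those 2, r turned negative for DPPA5 with ZP3 (-0.32), PADI6 (-0.72), KPNA7 (-0.26) and INHA (-0.57), for ZAR1 with FKBP6 (-0.11), KPNA7 (-0.0258) and INHA (-0.61), and for INHA with FKBP6 (-0.43) and KPNA7 (-0.48). When 1 breed was left out, r changed sign for 9 pairs, each time without Meishan. It ran from -0.39 to 0.70 for DPPA5 and ZP3, -0.45 to 0.74 for DPPA5 and PADI6, -0.68 to 0.79 for DPPA5 and INHA, -0.25 to 0.88 for ZP3 and ZAR1, -0.30 to 0.95 for PADI6 and ZAR1, -0.0509 to 0.92 for ZAR1 and KPNA7, -0.76 to 0.86 for ZAR1 and INHA, -0.0464 to 0.80 for FKBP6 and KPNA7 and -0.11 to 0.81 for FKBP6 and INHA. ZP3 and PADI6 stayed between 0.86 and 0.97. FPKM as deposited, median ratios over the ovaries alone and a pseudocount of 0.1 changed no sign among the 21 pairs.

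INHA in heart minus longissimus dorsi stayed between 2.998 and 3.91 on the log2 scale under the 7 alternatives run. The labels number no replicates, but breed, with 1 library per tissue, pairs the tissues and was the block. Without it that difference was 3.16, the genes called in ovary were 943, as with it, and 15879 genes in place of 15998 passed the F test outside ovary.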
